A study of Rattus norvegicus with 6 samples.

Results

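A set of 10 genes of the Bcl2 family was followed in primary cultures of rat testis cells that the labels call Sertoli cells, from rats of 2 ages: Bcl2, Bcl2l1, Mcl1, Bax, Bak1, Bok, Bid, Bcl2l11, Bbc3 and Pmaip1. They were taken from a list of family members by symbol, each through its probe set with the highest mean, and all 10 were measured among 14506 named genes. The study hybridised total RNA to 6 Affymetrix arrays, with 3 arrays for cultures of 9-day-old and 3 for cultures of 21-day-old Rattus norvegicus, and asked whether Sertoli cells of these ages differ in genes of cell death, division and growth. At both ages the cells came from decapsulated, digested testes, were plated in DMEM/F12 with 10% fetal bovine serum and had a change of medium after a further 24 hours of culture. The labels name no strain, treatment or genotype, describe the 9-day-old cells as still proliferating and the older ones as past that phase, and do not say whether the replicates numbered 1 to 3 came from separate rats or cultures. P-values therefore measure only the spread between these arrays, which may be technical. All values are log2 signals, and a difference of 1 on this scale is a 2-fold difference.

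The Bcl2 family controls the mitochondrial route to cell death. Bax, Bak1 and Bok encode effectors, proteins that can open the outer mitochondrial membrane and let cytochrome c out. Bcl2, Bcl2l1 (Bcl-xL) and Mcl1 encode survival proteins that hold the effectors back, and the BH3-only genes Bid, Bcl2l11 (Bim), Bbc3 (Puma) and Pmaip1 (Noxa) encode triggers that bind the survival proteins or engage the effectors. In the testis this family takes part in the loss of germ cells during the first wave of spermatogenesis, and Bax is needed for that loss.

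The arrays carried signal for several cell types. Of 17 measured markers of Sertoli cells, 6, among them Amh, Fshr and Cldn11, had a mean below the lowest array median of 3.78, while Clu and Ctsl were at 9.63 and 10.2 on average over the arrays. Markers of smooth muscle and fibroblasts were high in every array, with list means of 7.43 to 9.54 for 9 markers of smooth muscle and peritubular cells and 8.79 to 9.19 for 8 fibroblast markers. The Leydig cell gene Star was at 10.8 to 11.3, although 5 of 7 Leydig cell markers lay below the lowest array median, as did 8 of 10 germ cell, 9 of 10 macrophage and 5 of 7 endothelial markers. In such bulk samples, fewer cells of a type and less RNA per cell cannot be told apart. The 2 arrays numbered 3 stood apart: all 9 smooth muscle markers were higher in both of them than in each of the other 4 arrays. For the members of the family the differences between the ages are therefore also given without these 2 arrays. Those of the marker and pathway genes are given with all arrays only. At 21 days 14 of 17 Sertoli cell markers had a higher mean, against 46.5% of all genes, and 3 a lower one. The 6 markers below the lowest array median were all among these 14. The median difference of the 17 Sertoli cell markers was 0.22. It was -0.35 for the 9 smooth muscle markers, which all had a lower mean. Limma called none of these markers between the ages, and their part in the age differences of the family was not tested.

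No member of the family was called as different between the ages. Of the 10, 7 had a higher mean in the older cultures, as had 46.5% of all genes, and 3 a lower one, with log2 differences from -0.07 for Bax to 0.70 for Bcl2 and a median of 0.08, against a median of -0.01 over all genes. In limma none of the 10 had an adjusted p under 0.05, and the share of all genes called was 0%. None had an unadjusted p under 0.05 either, which 2.97% of all genes had, and none had one with the replicate number as a block, against 7.73% of all genes. The values of the ages overlapped for each of the 10, whereas they did not overlap for 5.72% of all genes. The exact two-sided permutation p ran from 0.40 for Bak1 to 0.90 for Bok and Bcl2l11, where 0.10 is the smallest that 3 against 3 allows. Among the 10, the spread over the arrays was widest in Bcl2, Pmaip1, Bcl2l11 and Bid, and narrowest in Mcl1, Bak1, Bbc3 and Bcl2l1.

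The promoters of the 4 members with the widest spread are shown, since their values separate the arrays most and in opposite directions. RefSeq promoters of build GRCr8 were matched for 7 of the 10 members. Each run below is the 250 bases before the annotated start, 5′ to 3′ on the strand of the gene. Capitals mark matches, on either strand and without overlap between motifs, to TATAAA (the core of the TATA box), GGGCGG (the GC box), GTAAACA (a forkhead factor core) or ACGTCA (part of the cyclic AMP response element). The CArG box, the element of smooth muscle genes bound by serum response factor, was searched too.
Bcl2, chr13:23366901-23367150, minus strand: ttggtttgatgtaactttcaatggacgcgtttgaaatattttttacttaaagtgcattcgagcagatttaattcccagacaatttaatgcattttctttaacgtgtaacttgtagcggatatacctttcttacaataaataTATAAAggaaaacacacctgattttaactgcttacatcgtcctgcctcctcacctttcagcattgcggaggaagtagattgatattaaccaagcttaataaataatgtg
Pmaip1, chr18:62255720-62255969, plus strand: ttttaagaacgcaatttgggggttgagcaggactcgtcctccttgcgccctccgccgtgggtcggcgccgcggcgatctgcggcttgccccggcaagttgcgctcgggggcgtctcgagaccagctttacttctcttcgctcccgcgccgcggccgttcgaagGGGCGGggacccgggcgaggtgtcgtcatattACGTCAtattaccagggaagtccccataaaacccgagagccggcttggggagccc
Bid, chr4:155808320-155808569, minus strand: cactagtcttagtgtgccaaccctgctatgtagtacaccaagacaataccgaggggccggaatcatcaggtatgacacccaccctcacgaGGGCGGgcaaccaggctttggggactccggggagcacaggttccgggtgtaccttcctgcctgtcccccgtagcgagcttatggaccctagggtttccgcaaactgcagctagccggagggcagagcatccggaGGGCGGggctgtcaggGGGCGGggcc
Bcl2l11, chr3:135819792-135820041, plus strand: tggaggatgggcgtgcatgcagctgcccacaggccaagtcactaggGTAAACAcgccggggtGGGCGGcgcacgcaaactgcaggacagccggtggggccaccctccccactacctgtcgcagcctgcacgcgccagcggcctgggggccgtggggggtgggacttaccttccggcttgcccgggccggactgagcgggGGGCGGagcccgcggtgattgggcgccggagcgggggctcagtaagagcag
The Bcl2 window was rich in A and T, with 33.6% G and C, and held 1 TATAAA. The Pmaip1 window had 64.8% G and C, with 1 GGGCGG and 1 ACGTCA. That of Bid had 62.8% and 3 GGGCGG, and that of Bcl2l11 had 72.0%, 2 GGGCGG and 1 GTAAACA. None of these 4 windows held a CArG box. Among 33469 promoter windows of the same length the median content of G and C was 51.2%, and 12.9% held TATAAA, 30.5% GGGCGG, 3.21% GTAAACA, 6.95% ACGTCA and 1.50% a CArG box. These matches describe the windows and are not shown to be binding sites.

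Among the survival genes, Bcl2 had the largest difference of the family. At 9 days it was at 4.55, 3.70 and 4.82 in replicates 1, 2 and 3, and at 21 days at 4.37, 4.44 and 6.38. One array, 21-day-old replicate 3, lay 1.56 log2 units above the next highest, and the remaining 2 arrays of that age lay within the range of the younger cultures. The means were 4.36 ± 0.59 and 5.06 ± 1.14 (SD, n = 3 each), a difference of 0.70 with a 95% confidence interval from -0.81 to 2.22 in limma, or a 1.63-fold level with an interval from 0.570 to 4.67. With the replicate number as a block the log2 interval ran from -0.15 to 1.56. The difference was 0.05 without 21-day-old replicate 3 and 0.28 without both arrays numbered 3. In that array the markers of Sertoli cells had their highest list mean, 6.06 against 5.01 to 5.54 in the others, and so did the germ cell markers, 3.16 against 2.79 to 2.94, and their part in the value of Bcl2 was not tested.

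Bcl2l1 and Mcl1 ranged over 0.42 and 0.28 log2 units across the 6 arrays. Bcl2l1 was at 7.66, 7.94 and 7.90 in the younger and 7.97, 7.55 and 7.81 in the older cultures, with the order of the replicates turned between the ages. Its difference was -0.06 (95% confidence interval -0.39 to 0.28), and its other probe set, with a mean signal of 5.55, gave -0.10. Mcl1, whose protein is short-lived and must be made continually, was at 9.59, 9.57 and 9.57 at 9 days and at 9.53, 9.42 and 9.69 at 21 days. Its difference of -0.03 had an interval from -0.24 to 0.18, or 0.848 to 1.14 of the younger level. The other Mcl1 probe set lay far lower, at 5.11 on average, and differed by 0.03.

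**Figure D1:**
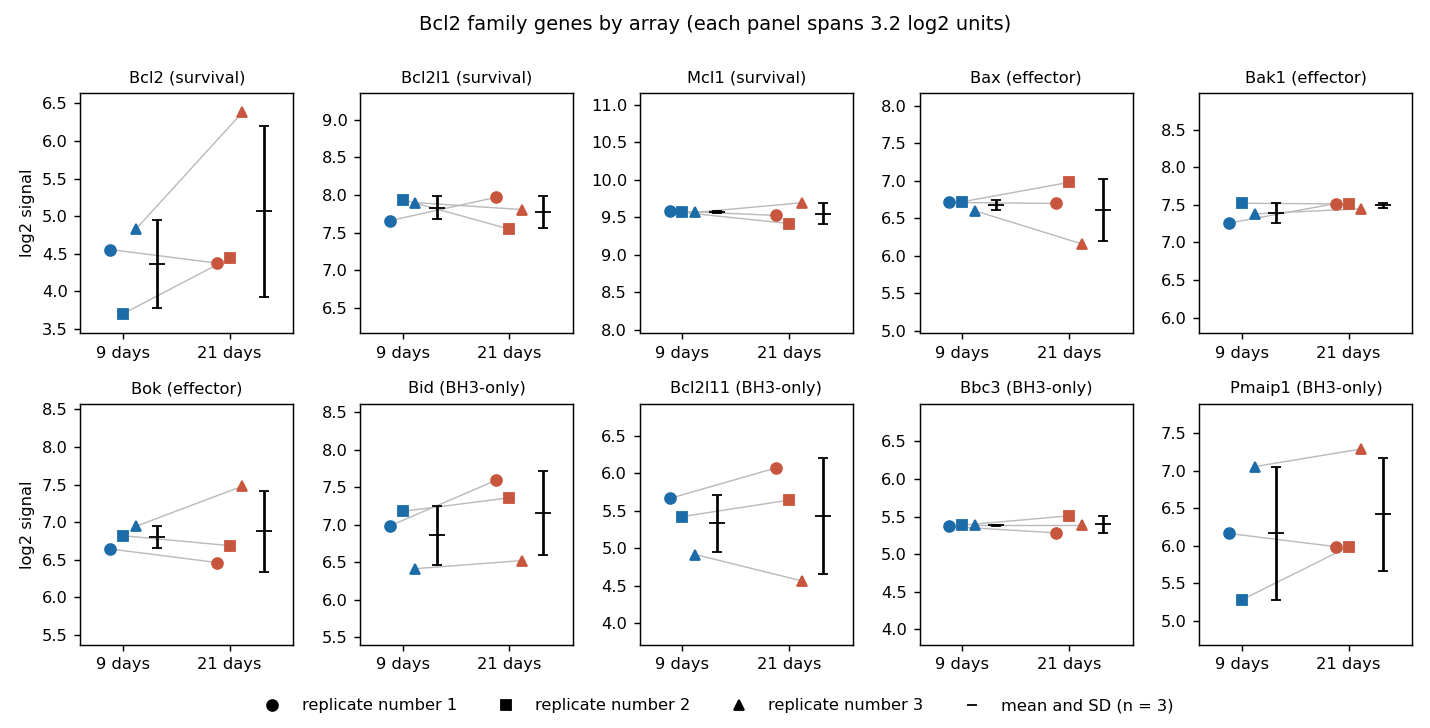
Log2 signal of the 10 Bcl2 family genes in each array (vertical axis; all panels span the same number of log2 units, centred on the gene), by age (horizontal axis) and replicate number (circle 1, square 2, triangle 3), with arrays of the same number joined in grey and the mean and SD of 3 arrays in black. The ages overlap in every panel, and the triangles lie above the other points for Bcl2, Bok and Pmaip1 and below them for Bax, Bid and Bcl2l11.

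Among the effectors, Bak1 was nearly level and Bax and Bok had a wider spread at 21 days. Bax was at 6.71, 6.72 and 6.60 at 9 days and at 6.70, 6.98 and 6.16 at 21 days, with its lowest value in 21-day-old replicate 3. The difference of -0.07 (95% confidence interval -0.58 to 0.45) became 0.16 without that array and 0.12 without both arrays numbered 3. A further Bax probe set gave 6.04, 5.92 and 5.48 at 9 days and 6.08, 5.86 and 5.68 at 21 days, and was lowest in the same pair of arrays. Bak1 was at 7.26, 7.52 and 7.38 at 9 days and 7.52, 7.51 and 7.45 at 21 days, with a difference of 0.11 (-0.10 to 0.32). Bok was at 6.64, 6.82 and 6.94 at 9 days and 6.46, 6.69 and 7.48 at 21 days, so that its highest value was again in 21-day-old replicate 3. Its difference was 0.07 (-0.59 to 0.74), or -0.23 without that array and -0.16 without both arrays numbered 3. Leaving out both gave -0.04 for Bcl2l1, -0.10 for Mcl1, 0.13 for Bak1 and 0.02 for the BH3-only gene Bbc3.

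Bid, which caspase 8 cleaves to carry the death receptor signal to mitochondria, was the only member higher at 21 days in all 3 pairs of arrays with the same number, a pattern in one direction or the other that 25.2% of all genes had. It was at 6.98, 7.18 and 6.41 at 9 days and at 7.59, 7.36 and 6.52 at 21 days. Both arrays numbered 3 were low, and within the pairs the older culture was higher by 0.61, 0.18 and 0.11. The difference of 0.30 had a 95% confidence interval from -0.52 to 1.12 in limma, and from -0.01 to 0.61 with the replicate number as a block. It was 0.40 without both arrays numbered 3. The adjusted p in limma was 1, and 0.654 with the block, the lowest of the 10 members.

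The other BH3-only genes behaved differently from each other. Bcl2l11 was at 5.66, 5.42 and 4.92 at 9 days and at 6.07, 5.64 and 4.56 at 21 days. Replicate 1 was highest and replicate 3 lowest at both ages, and the difference of 0.09 (95% confidence interval -0.93 to 1.12) was 0.52 without 21-day-old replicate 3, 0.31 without both arrays numbered 3 and -0.23 without 21-day-old replicate 1. Bbc3 was the most level gene of the family, at 5.37, 5.38 and 5.39 and at 5.28, 5.51 and 5.39, with a difference of 0.01 (-0.17 to 0.20). Pmaip1, whose protein binds Mcl1, was at 6.16, 5.28 and 7.05 at 9 days and at 5.99, 5.99 and 7.29 at 21 days. Its difference of 0.26 (-1.12 to 1.63) was -0.18 without 21-day-old replicate 3 and 0.27 without both arrays numbered 3. Both arrays numbered 3 exceeded the others by at least 0.89. With the replicate number as a block the intervals were -0.32 to 0.51 for Bcl2l11 and -0.20 to 0.71 for Pmaip1.

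**Figure D2:**
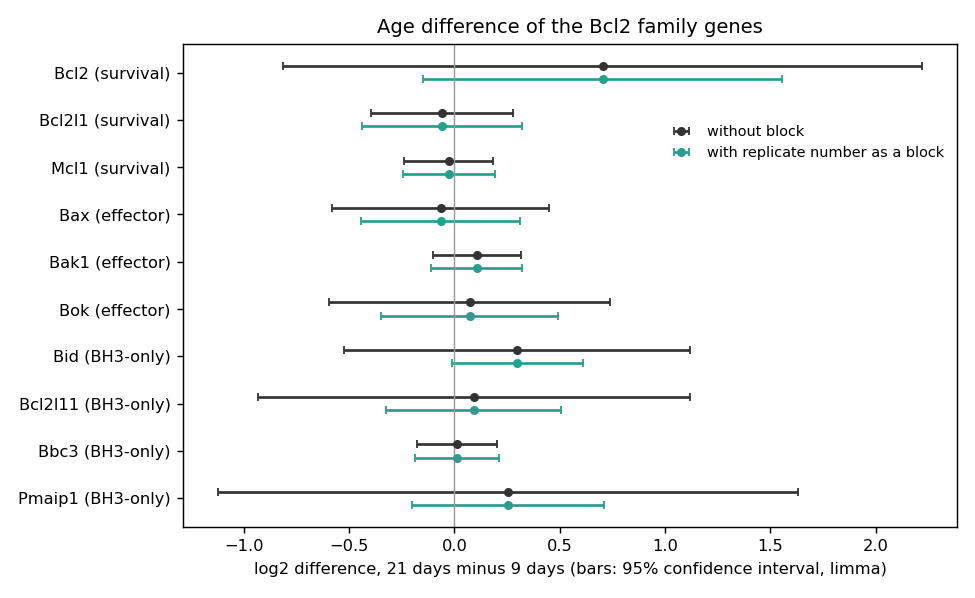
Difference in log2 signal between 21-day-old and 9-day-old cultures (horizontal axis) for each of the 10 genes, with 95% confidence intervals from limma over 6 arrays, without (black) and with (green) the replicate number as a block. Every interval contains 0, and the block narrows those of Bcl2, Bid, Bcl2l11 and Pmaip1 most.

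Over the 10 members, replicate number took a median of 63.4% of the spread between the arrays, and age 3.07%. Split by source, the sum of squares over the 6 arrays fell to replicate number by 89.6% in Pmaip1, 88.8% in Bcl2l11, 80.8% in Bid, 73.1% in Bok, 63.9% in Bax and 62.8% in Bcl2. Age held 18.5% in Bcl2, 30.9% in Bak1 and 12.4% in Bid, and at most 3.56% in each of the other 7. The number takes 2 of the 5 degrees of freedom and age 1, so these shares are unequal even without any effect. Over all genes the median shares were 51.7% for the number and 10.9% for age, and 7 of the 10 members had over 50% from the number, as had 51.6% of all genes.

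The numbers were tested with age in the limma model, a test chosen after the data were seen. Pmaip1 (unadjusted p 0.00236), Bid (0.00446), Bcl2l11 (0.00621) and Bcl2 (0.0303) had an unadjusted p under 0.05, 4 of 10 members against 22.3% of all genes. None of the 10 passed after adjustment over all genes, with a lowest adjusted p of 0.0767 in limma for Pmaip1, and 0.0896% of all genes passed. With only the 50% of genes with the highest mean kept, Pmaip1, Bid and Bcl2l11 passed (adjusted p 0.0227, 0.0322 and 0.0335 in limma). In that setting 950 of all 7253 genes kept passed. Pmaip1 also passed with median centring (0.0444) and with a trended robust prior (0.0393), where 529 and 496 of all 14506 genes passed.

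The 2 arrays numbered 3 lay on one side of all other arrays for 6 of the 10 members, and for 28.6% of all genes. Bcl2, Bok and Pmaip1 were above and Bax, Bid and Bcl2l11 below. The same was so of the arrays numbered 1 for 3 members, against 16.3% of all genes, and of those numbered 2 for 2 members, against 20.2%. Relative to the other arrays of the same age, Pmaip1 was higher by 1.33 log2 units in replicate 3 at 9 days and by 1.30 at 21 days. Bcl2 was higher by 0.70 and 1.97, and Bok by 0.21 and 0.90. Bid differed by -0.67 and -0.95, Bcl2l11 by -0.63 and -1.29 and Bax by -0.12 and -0.68. So a survival gene, an effector and a BH3-only gene were high in these arrays, and another effector and other BH3-only genes were low. The markers of smooth muscle and peritubular cells had means of 9.54 and 9.33 there, against 7.43 to 8.30 in the other 4 arrays, and their part in these values was not tested.

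**Figure D3:**
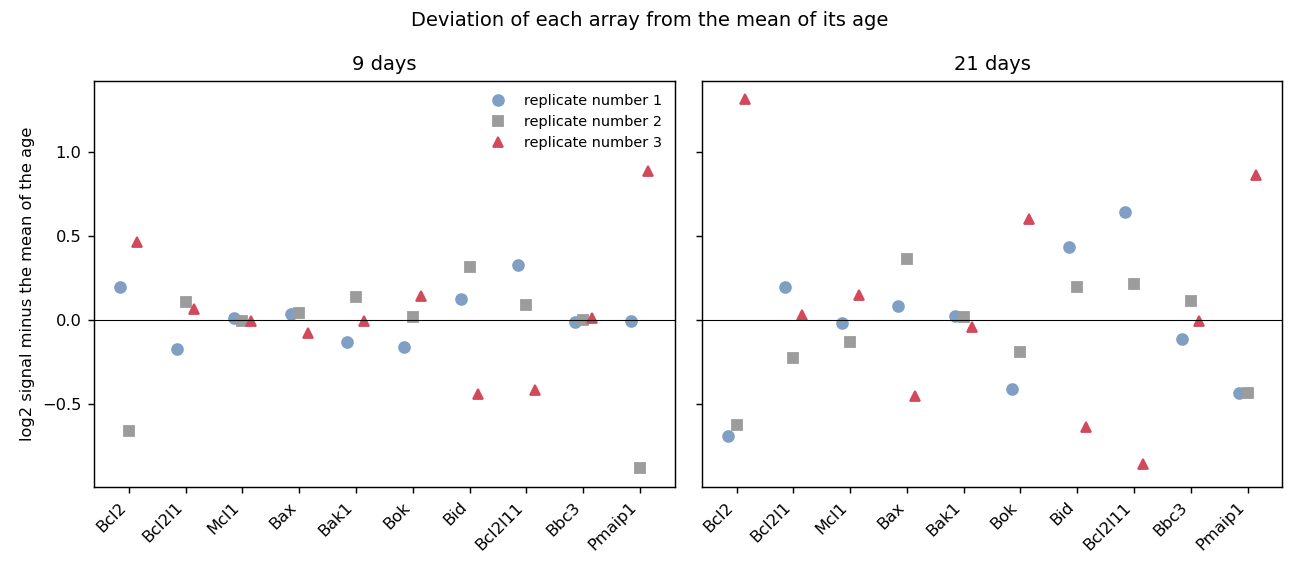
Log2 signal of each array minus the mean of its age (vertical axis) for the 10 genes (horizontal axis), at 9 days (left) and 21 days (right), by replicate number. The red triangles, replicate 3, lie at the top for Bcl2, Bok and Pmaip1 and at the bottom for Bax, Bid and Bcl2l11 at both ages.

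**Figure D4:**
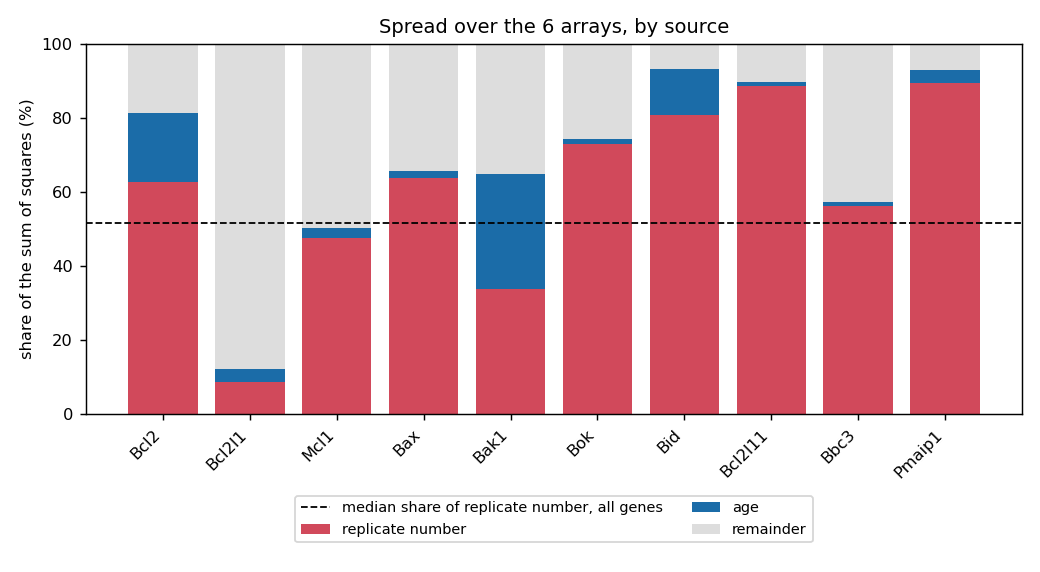
Share of the sum of squares over the 6 arrays (vertical axis, percent) that falls to replicate number (red), age (blue) and the remainder (grey) for each of the 10 genes, with the median share of the number over all genes as a dashed line. The red share is largest in Pmaip1 and Bcl2l11.

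The balance of Bcl2 and Bax, often read as a measure of readiness to die, was described within each array as the difference of their log2 signals. Its absolute value has no meaning, since the probe sets are not on one scale. This difference was -2.16, -3.02 and -1.77 in the younger cultures and -2.32, -2.54 and 0.22 in the older. The older arrays 1 and 2 lay within the range of the younger cultures, and array 3 lay above it. The mean was 0.77 higher at 21 days, and 0.16 higher without both arrays numbered 3. For Bcl2l1 against Bax the shift between the ages was 0.01, or -0.16 without both arrays numbered 3, and for Mcl1 against Pmaip1 it was -0.28, or -0.37 without them.

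Genes with the profile most like that of a member were sought for the 3 members of widest spread, by the root mean square distance between log2 values centred on each gene's mean, over the 6 arrays. Nearest to Bcl2 were A2m (distance 0.228), Cd59b (0.250), Car3 (0.252), Tmem176b (0.265) and Nes (0.267), each with its highest value in 21-day-old replicate 3. Nearest to Pmaip1 were Plxdc2 (0.232), Fbln5 (0.242), Nedd9 (0.253), Akap5 (0.261) and Zfc3h1 (0.261), which were high in both arrays numbered 3. Bcl2l11 was matched more closely, by Acaa2 (0.0538), Rpp25 (0.0942), Ptgr1 (0.102), Decr1 (0.107) and S100a13 (0.121). Acaa2 and Decr1 encode enzymes of mitochondrial fatty acid oxidation. These 5 genes were low in both arrays numbered 3.

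Of 13 other genes of the family or related to it, 12 were measured, and 6 of them had means below the lowest array median. Of these, 6 were higher and 6 lower at 21 days, with differences from -0.14 to 0.13, and none passed in limma. The largest were -0.14 ± 0.13 (SE) for Bcl2l10, 0.13 ± 0.07 for the BH3-only gene Bmf and -0.12 ± 0.19 for the BH3-only gene Bad. Bcl2l10, at 2.70 on average over the arrays, was among the 6 below the lowest array median. Bmf did not overlap between the ages, at 4.03, 4.03 and 3.91 against 4.11, 4.20 and 4.05. It was 1 of the 12 without overlap, against 5.72% of all genes.

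The list for the apoptosome and mitochondrial steps of cell death held 18 genes, of which 16 were measured. Among them 8 were higher and 8 lower in the older cultures, the median difference was 0.00 and limma called none. The protease gene Htra2, released from mitochondria in cell death, differed by 0.22 ± 0.13 (SE), the nuclease gene Endog by -0.19 ± 0.30 and the caspase inhibitor gene Xiap by -0.18 ± 0.11. In 7 of these 16 genes both arrays numbered 3 lay on one side of the others, against 28.6% of all genes. They lay below in 6 of the 16, and in 2157 of all 14506 genes. One of the 6 was Diablo, which encodes the antagonist of Xiap, at 7.79 and 7.96 in these arrays against 8.47 to 8.82.

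Of 23 listed regulators of the family 19 were measured, and 8 had a higher and 11 a lower mean in the older cultures; the median was -0.02 and limma called none. Trib3, a gene of the stress response, differed by -0.41 ± 0.26 (SE), Akt2, a survival kinase, by 0.28 ± 0.11 and E2f1, a cell cycle factor that can also raise BH3-only genes, by -0.25 ± 0.08. E2f1 was at 5.53, 5.66 and 5.40 in the younger and 5.28, 5.29 and 5.28 in the older cultures, without overlap. Akt2, at 8.20, 8.25 and 8.09 against 8.36, 8.37 and 8.66, did not overlap either. These were 2 of the 19 measured regulators, against 5.72% of all genes. Casp8, the protease that cleaves Bid, differed by 0.05 ± 0.09.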

How the data were processed

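Total RNA of cultured cells was measured on 6 Affymetrix arrays after labelling with a whole-transcript kit, per the labels' protocols. The deposited values are log2 signals, for which the submitters' processing notes name RMA. Its version is not given in the sources used here. RMA corrects background, normalizes arrays by quantiles and summarises probes per probe set, so it can hide shifts common to all genes. Without detection calls or scan dates, neither a limit of detection nor a batch could be assessed. The number of arrays limits the precision. Of 29214 probe sets, 15310 had 1 gene symbol in the platform annotation (323 had several, 13581 none), and the highest-mean probe set of each gene left 14506 genes. Entrez numbers of 15279 of the 15310 probe sets were found in RefSeq (GRCr8), which changed 0 symbols.

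Ages were taken from the titles and compared with limma 3.58.1 (R 4.3.3), lmFit and eBayes, without covariates, with Benjamini-Hochberg adjustment over all genes and a threshold of 0.05. The script was tested on simulated data. Single genes were also compared by exact permutation (scipy 1.17.1), and figures drawn with matplotlib 3.10.9. Across genes, deviations of arrays with the same replicate number correlated at 0.439, 0.549 and 0.673, each above the limit of 0.1, so the numbers, which come from the titles, were taken to pair the arrays. The main limma fit and the permutation test left this pairing out, and the fit with the block used it. Named were all 10 members, the 3 genes with the largest differences of each pathway list and the 5 nearest profiles of the 3 most variable members. Other genes (Clu, Ctsl, Star, Amh, Fshr, Cldn11, Diablo and Casp8) were named after their values were seen. The members and lists were chosen with earlier results of these data known. Listed genes without a probe set of their own, such as Bcl2l2, were not analysed here, and a further pathway list is not reported here.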

Additional observations from a re-analysis of the deposited data

How the results depend on the processing

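With 6 arrays and no detection calls, small differences at low signal cannot be read. No gene, and so none of the 10 members, had an adjusted p under 0.05 between the ages in limma when one choice was changed at a time: with the replicate number as a block, after either filter, median centring, quantile normalization, means over probe sets, a trended robust prior, array weights, without each array in turn, or without both arrays numbered 3, which was chosen after seeing the data. With the block and a further choice together, added after seeing the data, 5 genes passed with the 50% of genes with the highest mean kept, 5 with median centring and 6 with a trended robust prior, and 0 of the 10 members in each. The count at an unadjusted p under 0.05 was 431 (189 to 628 over the alternatives) without the block and 1122 (732 to 1262) with it. With one choice changed at a time, Bcl2, Bid and Bak1 kept the sign of their difference. The sign turned with array weights for Bcl2l1 (0.0045), Bok (-0.028) and Bbc3 (-0.013), with means over probe sets for Mcl1 (0.0015), with median centring for Bbc3 (-0.012), and without both arrays numbered 3 for Bax (0.12) and Bok (-0.16). Leaving out single arrays gave -0.16 to 0.056 for Bcl2l1, -0.10 to 0.037 for Mcl1, -0.25 to 0.16 for Bax, -0.23 to 0.28 for Bok, -0.23 to 0.52 for Bcl2l11, -0.044 to 0.069 for Bbc3 and -0.19 to 0.70 for Pmaip1, and also 0.047 to 1.05 for Bcl2 and 0.077 to 0.62 for Bid. Median centring moved the share of genes higher at 21 days from 46.5% to 37.2%. The shift of Bcl2 minus Bax was -0.11 to 1.27 without single arrays. The count of genes called for replicate number was 13 with all arrays and genes. It was 309 and 950 with the 75% and 50% of genes with the highest mean kept, and 529 with median centring. It was 210 with quantile normalization, 19 with array weights, 8 with means over probe sets and 496 with a trended robust prior. Leaving out any single array leaves its number with 1 array, so no count is read there. Without both arrays numbered 3 the count was 0. That fit has fewer residual degrees of freedom, so it cannot show whether the other numbers differ. The cause of these changes in the count was not tested.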
